A study of Mus musculus with 12 samples.

Results

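The transcripts of 2 atypical chemokine receptors, Ackr3 and Ackr4, and of 6 chemokines, Cxcl12, Cxcl14, Cxcl1, Ccl2, Ccl7 and Ccl11, were followed across 4 sorted populations of fibroblasts from the dermis of newborn mice. These 8 genes are a named list out of 17097 genes with a value. They were chosen by their chemokine function and by their levels across the 4 populations in all 12 arrays, so their own differences between populations are a description. No p-value is given for them, and the count of those called in the fit over all genes stands only beside the share of all genes called. Where a gene has several probe sets that carry its symbol alone, the one with the highest average level stands for it. Every sample came from 1 of 3 female littermates aged 2 days, whose strain is not in the labels, and each animal gave 1 array per population. The layer beneath the dermis was taken away, and collagenase was used to free the cells. Sorted cells were positive for Pdgfra and CD34 and lacked CD45, CD117, CD31 and EpCam. The papillary population was CD26+ Dlk1- Sca1-. The Dlk1- Sca1+ and Dlk1+ Sca1+ populations, both called pre-adipogenic in the labels, lacked CD26. The reticular population was CD26- Dlk1+ Sca1-. RNA of 4500 cells per sample was amplified over 21 cycles before hybridisation. All values below are log2 RMA levels of the deposited table, or differences between such levels, and the number of arrays limits their precision.

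Chemokines are small secreted proteins that bind heparan sulfate and guide leukocytes and other cells through G protein-coupled receptors. Atypical chemokine receptors bind the same ligands and take them into the cell without G protein signalling, which lowers the local amount of ligand and shapes gradients. Ackr3 takes up Cxcl12 and Cxcl11, and Ackr4 takes up Ccl19, Ccl21 and Ccl25. Cxcl12 holds and attracts haematopoietic cells and lymphocytes and is a product of many stromal cells. Ccl2 and Ccl7 attract monocytes, Ccl11 attracts eosinophils, Cxcl1 attracts neutrophils, and Cxcl14 is made by skin epithelium and fibroblasts.

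The sort was read first in marker transcripts. Dpp4, the gene of CD26, was at 10.18 to 10.97 in papillary cells and at 6.10 to 6.53 in the other 3 populations. Dlk1 was at 9.82 to 10.10 in papillary cells and 11.18 to 11.54 in Dlk1- Sca1+ cells, against 12.82 to 12.90 in Dlk1+ Sca1+ cells and 12.90 to 13.04 in reticular cells, so the populations sorted as Dlk1- still had a high transcript level. Ly6a, the gene of Sca1, was not analysed here. The mean of 9 fibroblast genes lay between 10.74 and 10.98 in all 12 arrays. The mean of 13 leukocyte genes lay between 5.17 and 5.52, against 5.28 to 5.66 for 9 genes of other organs that mark the low end of the scale. Ptprc, the gene of CD45, was at 3.81 to 4.03. In this list, mean Cd68 was 7.01 in papillary, 7.37 in Dlk1- Sca1+, 7.83 in Dlk1+ Sca1+ and 7.82 in reticular cells. Limma called 1 of the 13 lower in papillary than in reticular cells and 2 against each Sca1+ population, with 0 higher. Shares of all genes called lower were 13.6% (reticular), 13.9% (Dlk1+ Sca1+) and 13.3% (Dlk1- Sca1+). At an unadjusted p under 0.05, 2, 3 and 5 were lower and 0, 1 and 0 higher. The part of leukocyte RNA in the chemokine levels was not tested. Markers of other cells differed between the arrays of a population. In animal 1, the Dlk1- Sca1+ array had a list mean of 9.39 for epithelial, 7.93 for melanocyte and 6.08 for mast cell genes. In animal 2, the Dlk1+ Sca1+ array had an endothelial mean of 6.45, and in the reticular array the pericyte gene Rgs5 was at 9.52 and the smooth muscle gene Myh11 at 9.35. These 3 arrays were left out together in an alternative chosen after seeing the data, and a printed difference of the 8 genes is given without them where it moved by over 1.5 times or changed sign. Smaller excesses were seen in other arrays. In animal 1, Krt5 was at 10.92 in papillary and 11.09 in reticular cells, and Myh11 at 8.05 in reticular cells. In animal 3, the lymphatic genes Lyve1 and Prox1 were at 7.77 and 5.30 in Dlk1+ Sca1+ cells. These arrays were left out only 1 at a time or with all arrays of their animal.

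Promoter sequence is shown for both receptors and for the 2 chemokines that the results turn on and that the promoter table holds, so that the letters upstream of genes with opposite patterns can be read side by side. The stretches are the 160 bases before the RefSeq transcription start on build GRCm38.p6, each read 5′ to 3′ on the gene's strand. They are Ackr3 at chr1:90203820-90203979 (plus strand), Ackr4 at chr9:104126644-104126803 (minus strand), Cxcl12 at chr6:117168375-117168534 (plus strand) and Cxcl1 at chr5:90891085-90891244 (plus strand). Capitals mark matches, on either strand, to a kappa-B motif (GGGANNNNCC), a GC box (GGGCGG) and a TATA box (TATAAA).
Ackr3: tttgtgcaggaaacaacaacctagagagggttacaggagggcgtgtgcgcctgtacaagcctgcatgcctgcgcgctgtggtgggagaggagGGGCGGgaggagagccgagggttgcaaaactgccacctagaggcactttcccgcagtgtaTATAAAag
Ackr4: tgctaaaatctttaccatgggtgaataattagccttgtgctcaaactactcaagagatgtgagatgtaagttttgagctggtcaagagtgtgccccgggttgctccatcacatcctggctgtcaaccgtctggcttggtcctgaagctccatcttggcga
Cxcl12: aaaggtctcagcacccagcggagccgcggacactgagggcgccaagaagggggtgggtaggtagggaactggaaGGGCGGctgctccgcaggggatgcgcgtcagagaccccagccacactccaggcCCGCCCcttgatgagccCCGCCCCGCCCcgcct
Cxcl1: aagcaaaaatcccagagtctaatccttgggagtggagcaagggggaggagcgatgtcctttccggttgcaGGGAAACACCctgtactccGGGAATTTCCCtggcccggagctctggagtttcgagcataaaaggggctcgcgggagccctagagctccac
In the whole window of 250 bases before the start, the kappa-B letters occur in 17.6% of 32851 promoters, the GC box in 32.7% and the TATA box in 12.4%. Ackr3 holds 1 GC box and 1 TATA box, and the TATA box ends 3 bases before the start. Cxcl12 holds 4 GC boxes in the stretch shown, 2 of which share a base, and 1 more at 187 to 182 bases before the start. Cxcl1 holds 3 kappa-B matches, at 90 to 81, 71 to 62 and 70 to 61 bases before the start. The last 2 of these are on opposite strands and overlap. Ackr4 holds none of the 3 motifs in the stretch shown and a TATAAA match at 185 to 180 bases before the start. The window of Cxcl14 holds none of the 3. Ccl2, Ccl7 and Ccl11 had no entry in the table, which matched 5 of the 8 genes. A match is a string of letters and not a site shown to be bound.

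In the probe sets used, both atypical receptors were high in papillary cells and near the low end of the scale in the other 3 populations. Ackr3 (probe set 1417625_PM_s_at) was at 8.75, 8.78 and 9.44 in papillary cells of animals 1, 2 and 3, at 5.01, 4.79 and 5.12 in Dlk1- Sca1+ cells, at 4.91, 4.84 and 4.73 in Dlk1+ Sca1+ cells and at 5.21, 5.08 and 4.79 in reticular cells. Every papillary array lay above every other array by more than 3 log2 units, and the other 3 populations overlapped with each other. The papillary difference was 4.02 ± 0.17 from Dlk1- Sca1+ cells, 4.16 ± 0.17 from Dlk1+ Sca1+ cells and 3.96 ± 0.17 from reticular cells (limma's SE, n = 3 animals each), or 16.2-fold, 17.9-fold and 15.6-fold. Among the other 3 populations the differences ran from -0.20 to 0.15. In papillary arrays Ackr3 stood between percentiles 80.0 and 87.5 of all genes, and elsewhere between percentiles 12.3 and 23.5. In bulk samples such as these, fewer cells of a type and less RNA per cell cannot be told apart.

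Ackr4 (probe set 1426139_PM_a_at) was at 10.56, 10.28 and 10.11 in papillary cells, at 6.11, 5.41 and 5.07 in Dlk1- Sca1+ cells, at 4.91, 5.25 and 5.28 in Dlk1+ Sca1+ cells and at 5.81, 5.91 and 5.63 in reticular cells. The papillary values again lay apart from all others. Papillary cells exceeded Dlk1- Sca1+ cells by 4.79 ± 0.21, Dlk1+ Sca1+ cells by 5.17 ± 0.21 and reticular cells by 4.53 ± 0.21, or 27.6-fold, 36.0-fold and 23.2-fold. Of 17097 genes, only 1 had a larger papillary minus reticular difference, and Ackr4 ranked 4 in the contrast with Dlk1+ Sca1+ cells and 3 in the contrast with Dlk1- Sca1+ cells, where Ackr3 ranked 5, 11 and 9 in the same order of contrasts. Below the papillary level, all 3 Dlk1+ Sca1+ values lay under all 3 reticular values, with a difference of -0.64 ± 0.21. The highest Dlk1- Sca1+ value of Ackr4 came from animal 1, the array with markers of other cells, and without the 3 such arrays the papillary minus Dlk1- Sca1+ difference was 5.08. The gene overlaps Acad11 in RefSeq, and 2 further probe sets that carry both symbols were not used. They were brighter, with averages of 8.23 and 8.27 over the 12 arrays against 6.69 in the probe set used. Their means in the other 3 populations were 7.80 to 8.41. In these 2 probe sets the papillary minus reticular difference was 0.12 and 0.05. Their papillary minus Dlk1+ Sca1+ difference was 0.72 and 0.56, and their papillary minus Dlk1- Sca1+ difference 0.30 and 0.16. The papillary excess of 4.53 or more was thus read only in the probe set that carries the Ackr4 symbol alone.

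**Figure D1:**
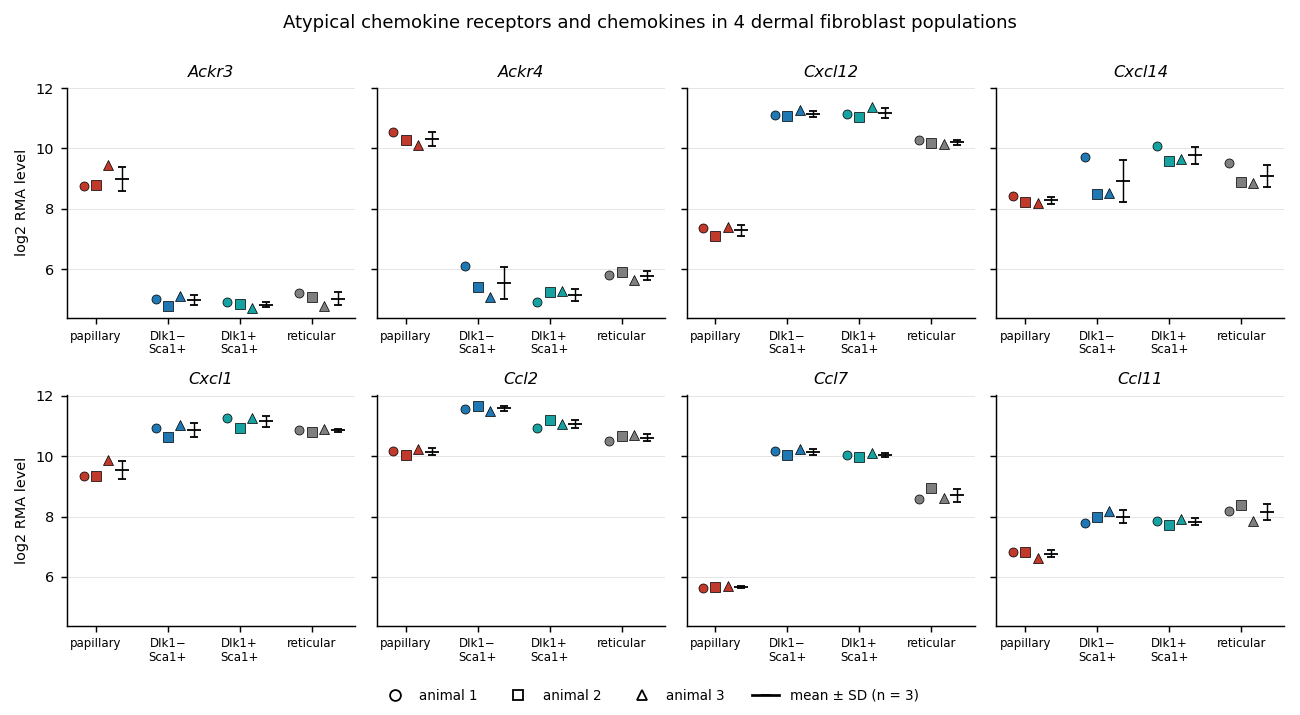
Log2 RMA level (vertical axis) of the 8 genes in each of 12 arrays, by population (papillary, Dlk1- Sca1+, Dlk1+ Sca1+, reticular) and animal (circle, square and triangle for animals 1, 2 and 3), with mean and SD bars. The papillary arrays lie above all others for Ackr3 (8.75 to 9.44) and Ackr4 (10.11 to 10.56) and below all others for each of the 6 chemokines.

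Cxcl12, the main known ligand of Ackr3, had the opposite extreme, with its lowest values in papillary cells. Its level (probe set 1448823_PM_at) was 7.37, 7.09 and 7.39 in papillary cells, 11.11, 11.06 and 11.26 in Dlk1- Sca1+ cells, 11.14, 11.05 and 11.37 in Dlk1+ Sca1+ cells and 10.28, 10.17 and 10.15 in reticular cells. The populations formed 3 steps without overlap, with papillary cells lowest, reticular cells between and both Sca1+ populations together at the top. Papillary cells were lower than Dlk1- Sca1+ cells by a difference of -3.86 ± 0.10 (14.5-fold), than Dlk1+ Sca1+ cells by -3.90 ± 0.10 (15.0-fold) and than reticular cells by -2.92 ± 0.10 (7.55-fold). Dlk1- Sca1+ cells exceeded reticular cells by 0.94 ± 0.10 and Dlk1+ Sca1+ cells exceeded them by 0.99 ± 0.10, while the Dlk1- Sca1+ minus Dlk1+ Sca1+ difference was -0.04 ± 0.10 and its sign varied between animals (-0.095 without the 3 arrays with markers of other cells). Both other probe sets of Cxcl12 gave smaller differences of the same direction, with -2.23 and -1.19 for papillary minus reticular. With the mean of the 3 probe sets as the gene's value, the papillary minus reticular difference was -2.11, the papillary minus Dlk1+ Sca1+ difference -2.79 and the papillary minus Dlk1- Sca1+ difference -2.76. In papillary cells Cxcl12 stood between percentiles 56.3 and 61.1 of all genes. Single values of the 9 genes of other organs ran from 4.14 to 8.21, with Prm1 at 7.37 to 8.21. Whether the papillary Cxcl12 level lies above background was therefore not settled by its percentile.

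Ccl2, Ccl7 and Ccl11 lie next to each other on chromosome 11 in RefSeq, with no other coding gene between them. All were lowest in papillary cells, and they differed in size and in the order of the other populations. Ccl7 (probe set 1421228_PM_at) was at 5.63, 5.67 and 5.69 in papillary cells, at 10.18, 10.03 and 10.23 in Dlk1- Sca1+ cells, at 10.03, 9.98 and 10.10 in Dlk1+ Sca1+ cells and at 8.57, 8.96 and 8.60 in reticular cells. No papillary value came within 2 log2 units of any other. The differences were -4.48 ± 0.10 from Dlk1- Sca1+ cells (22.4-fold), -4.37 ± 0.10 from Dlk1+ Sca1+ cells (20.7-fold) and -3.05 ± 0.10 from reticular cells (8.26-fold). Both Sca1+ populations exceeded reticular cells, by 1.44 ± 0.10 in Dlk1- Sca1+ cells and 1.33 ± 0.10 in Dlk1+ Sca1+ cells, and they overlapped with each other. Ccl7 thus had the same 3 steps as Cxcl12.

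Ccl2 (probe set 1420380_PM_at) was at 10.17, 10.04 and 10.25 in papillary cells, at 11.57, 11.67 and 11.51 in Dlk1- Sca1+ cells, at 10.94, 11.21 and 11.08 in Dlk1+ Sca1+ cells and at 10.49, 10.66 and 10.69 in reticular cells. It was the only one of the 8 genes in which no 2 populations overlapped. The 4 populations formed a ladder, with Dlk1- Sca1+ cells at the top, then Dlk1+ Sca1+ cells, then reticular cells, then papillary cells, and each of the 6 pairwise differences had the same sign in all 3 animals. Papillary cells differed by -1.43 ± 0.09 from Dlk1- Sca1+ cells, by -0.92 ± 0.09 from Dlk1+ Sca1+ cells and by -0.46 ± 0.09 from reticular cells. Dlk1- Sca1+ cells exceeded Dlk1+ Sca1+ cells by 0.51 ± 0.09. Ccl2 stayed in the upper part of the scale in every population, at percentile 92.2 or above, whereas Ccl7 in papillary cells stood between percentiles 30.7 and 31.5.

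Ccl11 (probe set 1417789_PM_at) was at 6.84, 6.83 and 6.64 in papillary cells, at 7.78, 8.00 and 8.20 in Dlk1- Sca1+ cells, at 7.85, 7.72 and 7.93 in Dlk1+ Sca1+ cells and at 8.18, 8.39 and 7.86 in reticular cells. Papillary values lay below all others, and the other 3 populations formed a chain of overlaps with reticular cells at the top. The papillary differences were -1.22 ± 0.14, -1.06 ± 0.14 and -1.37 ± 0.14 from Dlk1- Sca1+, Dlk1+ Sca1+ and reticular cells. Where Cxcl12, Ccl2 and Ccl7 had higher values in both Sca1+ populations than in reticular cells, Ccl11 differed from reticular cells by -0.15 ± 0.14 for Dlk1- Sca1+ cells and -0.31 ± 0.14 for Dlk1+ Sca1+ cells. Without the 3 arrays with markers of other cells these differences were 0.08 and -0.13. Ccl12, the next gene after Ccl11, and Ccl8, another monocyte attractant, were near the low end of the scale in all 12 arrays, at 4.24 to 4.53 and 5.11 to 5.45, and were called in no contrast.

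Cxcl1, a ligand of Cxcr2 (probe set 1419209_PM_at), was at 9.36, 9.36 and 9.88 in papillary cells, at 10.92, 10.62 and 11.05 in Dlk1- Sca1+ cells, at 11.25, 10.94 and 11.28 in Dlk1+ Sca1+ cells and at 10.88, 10.80 and 10.90 in reticular cells. Papillary arrays lay below all others, and the other 3 populations were close together. The papillary differences were -1.33 ± 0.15 from Dlk1- Sca1+ cells (2.51-fold), -1.62 ± 0.15 from Dlk1+ Sca1+ cells (3.08-fold) and -1.33 ± 0.15 from reticular cells (2.51-fold). Dlk1+ Sca1+ cells were above reticular cells without overlap, by 0.30 ± 0.15. Cxcl2, which attracts neutrophils through the same receptor and follows Cxcl1 on chromosome 5, was at 9.34, 9.27 and 9.92 in papillary cells, with animal 3 highest for both genes.

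Cxcl14 (probe set 1418456_PM_a_at) had the widest spread between animals of the 8 genes, with an SD of 0.69 in Dlk1- Sca1+ cells. It was at 8.41, 8.24 and 8.20 in papillary cells, at 9.71, 8.49 and 8.53 in Dlk1- Sca1+ cells, at 10.09, 9.57 and 9.65 in Dlk1+ Sca1+ cells and at 9.51, 8.89 and 8.86 in reticular cells. Papillary values were again lowest without overlap, but animal 1 was highest in each of the 4 populations. The papillary differences were -0.63 ± 0.28 from Dlk1- Sca1+ cells, -1.49 ± 0.28 from Dlk1+ Sca1+ cells and -0.80 ± 0.28 from reticular cells. Dlk1+ Sca1+ cells exceeded reticular cells by 0.68 ± 0.28, with values of 0.58, 0.68 and 0.79 in animals 1, 2 and 3. Dlk1- Sca1+ cells differed from Dlk1+ Sca1+ cells by -0.86 ± 0.28.

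Epithelial transcripts varied between animals in the same arrays. Krt5, a keratin of basal keratinocytes, was at 10.92, 8.28 and 8.18 in papillary cells, at 12.10, 9.86 and 9.83 in Dlk1- Sca1+ cells, at 10.68, 10.94 and 9.59 in Dlk1+ Sca1+ cells and at 11.09, 8.60 and 9.21 in reticular cells, so that animal 1 was highest in 3 of the 4 populations. The mean of 7 measured epithelial genes was 6.40 to 7.44 in papillary cells, 7.15 to 9.39 in Dlk1- Sca1+ cells, 7.01 to 7.79 in Dlk1+ Sca1+ cells and 6.63 to 7.73 in reticular cells. Epcam, whose protein was used to remove epithelial cells, was highest, at 8.62, in the Dlk1- Sca1+ cells of animal 1, with 5.62 to 6.73 in the other 11 arrays. Without the 3 arrays with markers of other cells, the papillary difference in Cxcl14 was -0.23 from Dlk1- Sca1+ cells, -1.59 from Dlk1+ Sca1+ cells and -0.90 from reticular cells. The Dlk1- Sca1+ minus Dlk1+ Sca1+ difference was then -1.36, against -0.86 with all arrays. The part of epithelial RNA in the Cxcl14 levels was not tested.

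**Figure D2:**
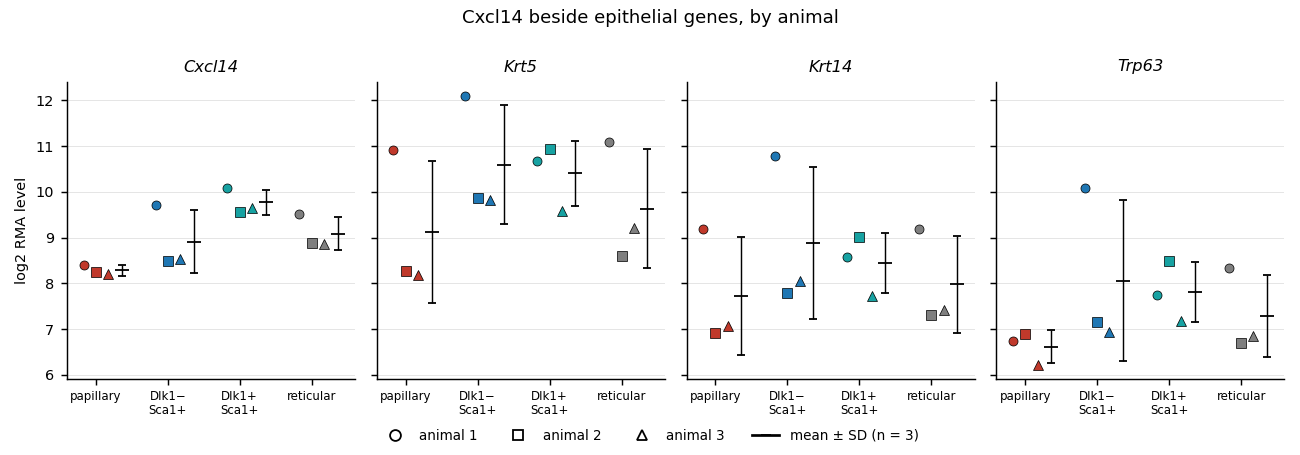
Log2 RMA level of Cxcl14 and of the epithelial genes Krt5, Krt14 and Trp63 in each array, by population and animal, with mean and SD bars. In the Dlk1- Sca1+ population animal 1 is highest in all 4 panels, with Cxcl14 at 9.71 and Krt5 at 12.10.

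Counts over the 8 genes are set beside those over all genes. In papillary minus reticular cells, 7 of the 8 genes had an adjusted p under 0.05 in limma's fit over all genes, 2 higher and 5 lower, where 27.5% of all genes did (13.9% higher and 13.6% lower). The counts were 8 against Dlk1+ Sca1+ cells, beside 28.0% of all genes (14.1% higher and 13.9% lower), and 7 against Dlk1- Sca1+ cells, beside 26.4% (13.1% higher and 13.3% lower). In all 3 contrasts, both receptors were called higher, as were 7.97% of all genes, and 5 chemokines lower, as were 7.29%. These contrasts share the papillary arrays. In Dlk1+ Sca1+ minus reticular cells 3 of the 8 were called, all higher, beside 8.43% of all genes (4.06% higher). In Dlk1- Sca1+ minus reticular cells the same 3 were called, again higher, beside 18.2% (9.36% higher). Between the Sca1+ populations 1 was called, higher in Dlk1- Sca1+ cells, beside 7.36% (3.23% higher). The genes were listed with all 6 contrasts known, so nothing is read from these counts. With the animal as a block, the 6 counts in this order of contrasts were 8, 8, 8, 4, 3 and 2, and wherever a gene was added it was Cxcl14. Without animal 3 the count between the Sca1+ populations was 0, without animal 1 that in Dlk1- Sca1+ minus reticular was 5, and without the Dlk1- Sca1+ array of animal 1 the counts were 5 in Dlk1+ Sca1+ minus reticular and 2 between the Sca1+ populations. Values of the 2 populations did not overlap for all 8 genes in each papillary contrast, for 6 genes in Dlk1+ Sca1+ minus reticular, for 3 in Dlk1- Sca1+ minus reticular and for 1 between the Sca1+ populations. The share of all genes without overlap was 37.6% in papillary minus reticular, 40.2% in papillary minus Dlk1+ Sca1+, 37.9% in papillary minus Dlk1- Sca1+, and 21.6%, 29.1% and 21.9% in the other 3 contrasts. The median difference of the 8 genes was -1.07 in papillary minus reticular, -1.28 in papillary minus Dlk1+ Sca1+ and -1.28 in papillary minus Dlk1- Sca1+, where the median of all genes was between -0.01 and 0.00.

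**Figure D3:**
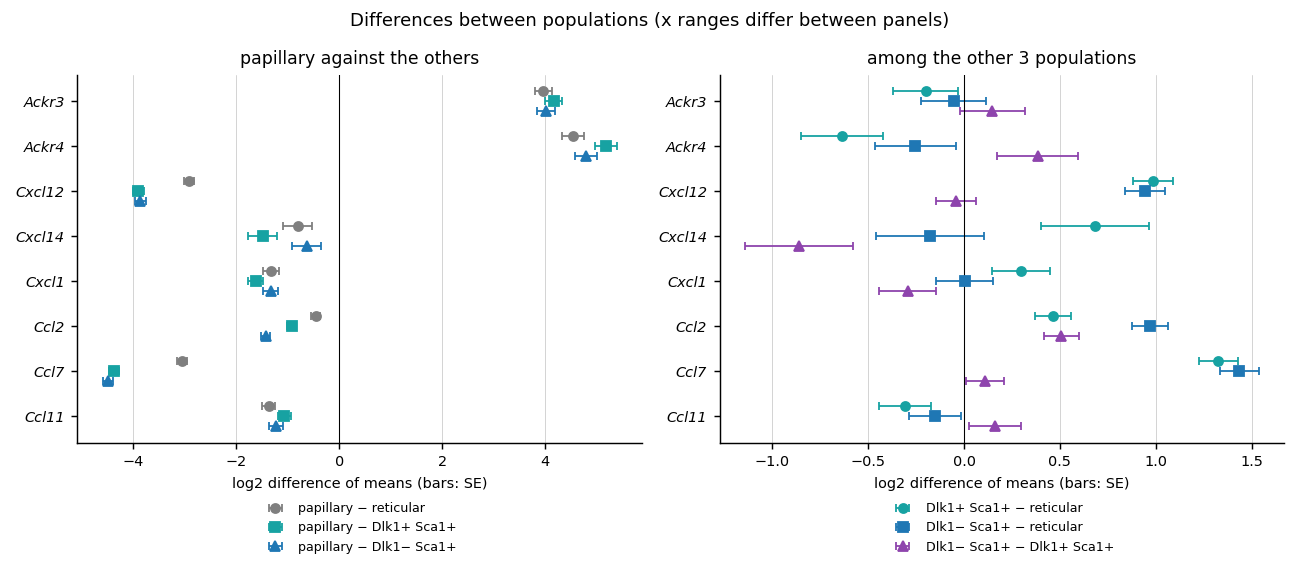
Log2 difference of population means (horizontal axis, bars show limma's SE, n = 3 animals per population) for the 8 genes, papillary against each other population on the left and among the other 3 on the right, with different axis ranges. Ackr3 and Ackr4 lie between 3.96 and 5.17 on the left and every chemokine lies below 0, from -0.46 to -4.48.

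Set side by side by population, the transcripts of the 2 scavenging receptors and of the 6 chemokines had opposite extremes. Of the 6, only Cxcl12 is among the ligands named above for Ackr3 or Ackr4. Papillary cells had the highest mean of both receptors (8.99 ± 0.39 for Ackr3 and 10.32 ± 0.23 for Ackr4, SD) and the lowest mean of all 6 ligands. The highest mean of a ligand fell in Dlk1+ Sca1+ cells for Cxcl12, Cxcl14 and Cxcl1, in Dlk1- Sca1+ cells for Ccl2 and Ccl7 and in reticular cells for Ccl11. For Cxcl12, Cxcl1, Ccl7 and Ccl11 the top 2 populations overlapped, and for Ccl2 and Cxcl14 they did not. The list mean of pericyte and smooth muscle genes was also lowest in papillary cells, at 6.18 to 6.29 in papillary cells, 6.72 to 6.93 in Dlk1- Sca1+ cells, 7.01 to 7.80 in Dlk1+ Sca1+ cells and 7.48 to 8.32 in reticular cells. Of the 7 measured, limma called 4 lower in papillary than in reticular cells and 0 higher (1 higher at an unadjusted p under 0.05), beside 13.6% and 13.9% of all genes. Against Dlk1+ Sca1+ cells 3 were called lower and 1 higher, beside 13.9% and 14.1%, and against Dlk1- Sca1+ cells 3 lower and 1 higher, beside 13.3% and 13.1%. Des, the muscle filament desmin, had its highest mean in papillary cells (6.40, against 5.81 in Dlk1- Sca1+, 5.88 in Dlk1+ Sca1+ and 6.09 in reticular cells). The list mean of 7 skeletal muscle genes was 5.80 to 5.87 in papillary cells, 5.89 to 6.03 in Dlk1- Sca1+ cells, 6.36 to 6.56 in Dlk1+ Sca1+ cells and 6.83 to 7.23 in reticular cells. Called lower in papillary cells were 6 of the 7 against reticular cells, beside 13.6% of all genes, 4 against Dlk1+ Sca1+ cells, beside 13.9%, and 0 against Dlk1- Sca1+ cells (1 at an unadjusted p under 0.05), beside 13.3%. The endothelial list mean was 5.60 to 5.71 in papillary, 5.71 to 6.02 in Dlk1- Sca1+, 5.79 to 6.45 in Dlk1+ Sca1+ and 5.95 to 6.16 in reticular cells. Called lower against reticular, Dlk1+ Sca1+ and Dlk1- Sca1+ cells were 2, 3 and 1 of 10 endothelial genes, beside the same shares. For lymphatic genes the counts were 1, 2 and 1 of 4, and for melanocyte and Schwann cell genes 0, 0 and 4 of 5. None of these 3 lists had a gene called higher. In the lymphatic list, mean Pdpn was 9.95 in papillary, 11.44 in Dlk1- Sca1+, 11.40 in Dlk1+ Sca1+ and 10.91 in reticular cells. Population means of Lyve1, Prox1 and Flt4 lay between 4.64 and 6.62. The part of RNA from any cell type of these lists in the ligand levels was not tested. Without the 3 arrays with markers of other cells, the papillary minus reticular difference was 3.99 for Ackr3, 4.60 for Ackr4, -2.93 for Cxcl12 and -2.92 for Ccl7.

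The ligands that Ackr4 takes up were then read. Ccl19, which guides dendritic cells and lymphocytes through Ccr7, was at 6.83, 6.81 and 6.85 in papillary cells, at 9.42, 9.51 and 9.34 in Dlk1- Sca1+ cells, at 8.93, 9.31 and 9.05 in Dlk1+ Sca1+ cells and at 7.30, 7.29 and 7.52 in reticular cells. It was lower in papillary cells than in Dlk1- Sca1+ cells (difference -2.59 ± 0.10, limma adjusted p = 9.09e-10), in Dlk1+ Sca1+ cells (-2.27 ± 0.10, adjusted p = 2.46e-09) and in reticular cells (-0.54 ± 0.10, adjusted p = 0.00111). Both Sca1+ populations were also above reticular cells, by 2.05 ± 0.10 in Dlk1- Sca1+ cells (adjusted p = 3.48e-08) and 1.73 ± 0.10 in Dlk1+ Sca1+ cells (adjusted p = 4.26e-07). Ccl25 was at 6.79 to 6.98 in papillary cells and 7.07 to 7.30 in Dlk1+ Sca1+ cells, a difference of -0.32 ± 0.10 (adjusted p = 0.0227), and it was called in no other contrast. That call was lost in 7 of 21 other settings, among them leaving out animal 2 (-0.36) or animal 3 (-0.23). With the animal as a block, Ccl25 was also called in Dlk1+ Sca1+ minus reticular (limma adjusted p = 0.0448, against 0.0943 without the block). Ccl21a and its receptor Ccr7 were not analysed here. For Ackr3, the second chemokine ligand Cxcl11 was near the low end of the scale at 4.09 to 4.51, and Cxcr4, the signalling receptor of Cxcl12, was not analysed here.

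Beyond the 8 genes, the chemokine family list held 57 genes, of which 49 were measured, namely 29 of 32 ligands and 20 of 25 receptors. Ackr3 and Ackr4, being among the 8, are not among the 49. In papillary cells limma called 0 of the 49 higher in any of the 3 contrasts, and 0 were higher at an unadjusted p under 0.05. Of all genes, 13.9%, 14.1% and 13.1% were called higher against reticular, Dlk1+ Sca1+ and Dlk1- Sca1+ cells. Many of the 49 lay low on the scale, for example Ccl12 at percentile 5.9 and Ccr3 at percentile 3.6 of all genes by mean level. RMA understates differences of such dim probe sets, so little can be read from the 0. Called lower were 8 genes against reticular cells, beside 13.6% of all genes, 9 against Dlk1+ Sca1+ cells, beside 13.9%, and 8 against Dlk1- Sca1+ cells, beside 13.3%. The median difference over the 49 was -0.04, -0.05 and -0.04 in these contrasts, beside -0.01, 0.00 and -0.00 over all genes. Among the other 3 populations, 3 of the 49 were called in Dlk1+ Sca1+ minus reticular (7 with the animal as a block), beside 8.43% of all genes, 4 in Dlk1- Sca1+ minus reticular, beside 18.2%, and 4 between the Sca1+ populations, beside 7.36%. The count in Dlk1- Sca1+ minus reticular was 2 without animal 1 or its Dlk1- Sca1+ array alone. The count between the Sca1+ populations was 1 without animal 1 or animal 2, and 2 without animal 3, without the Dlk1- Sca1+ array of animal 1 or 2, or without the Dlk1+ Sca1+ array of animal 3.

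Among the ligands called, Cxcl10 and Cxcl9, which attract T cells through Cxcr3 and are induced by interferon, had the largest papillary minus reticular differences. Cxcl10 was at 7.64, 7.88 and 8.09 in papillary cells, at 9.66, 10.02 and 10.38 in Dlk1- Sca1+ cells, at 10.48, 10.57 and 10.89 in Dlk1+ Sca1+ cells and at 10.11, 10.34 and 10.37 in reticular cells. Its papillary difference was -2.15 ± 0.17 from Dlk1- Sca1+ cells (limma adjusted p = 6.99e-07), -2.78 ± 0.17 from Dlk1+ Sca1+ cells (adjusted p = 5.71e-08) and -2.40 ± 0.17 from reticular cells (adjusted p = 3.25e-07). Cxcl9 was at 5.02 to 5.29 in papillary cells, 6.14 to 7.56 in Dlk1- Sca1+ cells, 6.68 to 7.08 in Dlk1+ Sca1+ cells and 7.53 to 8.08 in reticular cells, and was thus highest in reticular cells. The papillary minus reticular difference of Cxcl9 was -2.72 ± 0.27 (adjusted p = 6e-06).

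Ccl27a, a skin chemokine that acts through Ccr10, had the same order of populations as Ccl2. It was at 9.08, 9.10 and 8.87 in papillary cells, at 11.04, 11.19 and 10.87 in Dlk1- Sca1+ cells, at 10.38, 10.61 and 10.42 in Dlk1+ Sca1+ cells and at 9.41, 9.57 and 9.69 in reticular cells. All 6 contrasts were called, with papillary differences of -2.02 ± 0.11, -1.45 ± 0.11 and -0.54 ± 0.11 from Dlk1- Sca1+, Dlk1+ Sca1+ and reticular cells (limma adjusted p = 1.67e-08, 3.01e-07 and 0.00187). The gene overlaps Il11ra1 in RefSeq, and the strand that its probe set reads was not tested. Cxcl2 was lower in papillary cells by -1.11 ± 0.19, -1.26 ± 0.19 and -0.79 ± 0.19 against the same populations (limma adjusted p = 0.000651, 0.000213 and 0.00692). Cxcl16, a membrane-bound chemokine that overlaps Zmynd15 in RefSeq, was lower by -0.48 ± 0.11, -0.62 ± 0.11 and -0.74 ± 0.11 (limma adjusted p = 0.00482, 0.000708 and 0.000201). Cxcl5, a chemokine of neutrophils near the bottom of the scale, was at 3.78 to 3.90 in papillary cells and was called lower against Dlk1+ Sca1+ cells (-0.81 ± 0.13, limma adjusted p = 0.000381) and reticular cells (-0.49 ± 0.13, adjusted p = 0.0133). Cxcl13, a B cell attractant, was called against Dlk1- Sca1+ cells (-0.65 ± 0.21, limma adjusted p = 0.0371) and lost that call in 12 of 21 other settings. Without animal 2, the call against reticular cells was lost for Cxcl2 (-0.58, adjusted p = 0.171) and Cxcl5 (-0.43, adjusted p = 0.0847), and for Cxcl2 also without the 3 arrays with markers of other cells (-0.70, adjusted p = 0.0517). Without animal 1, the Dlk1- Sca1+ contrast of Cxcl16 lost its call (-0.35, adjusted p = 0.0911). For Ccl27a the difference between the Sca1+ populations, 0.56 ± 0.11 with all arrays, lost its call without animal 1 (0.52, adjusted p = 0.0837) or animal 2 (0.56, adjusted p = 0.0599).

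**Figure D4:**
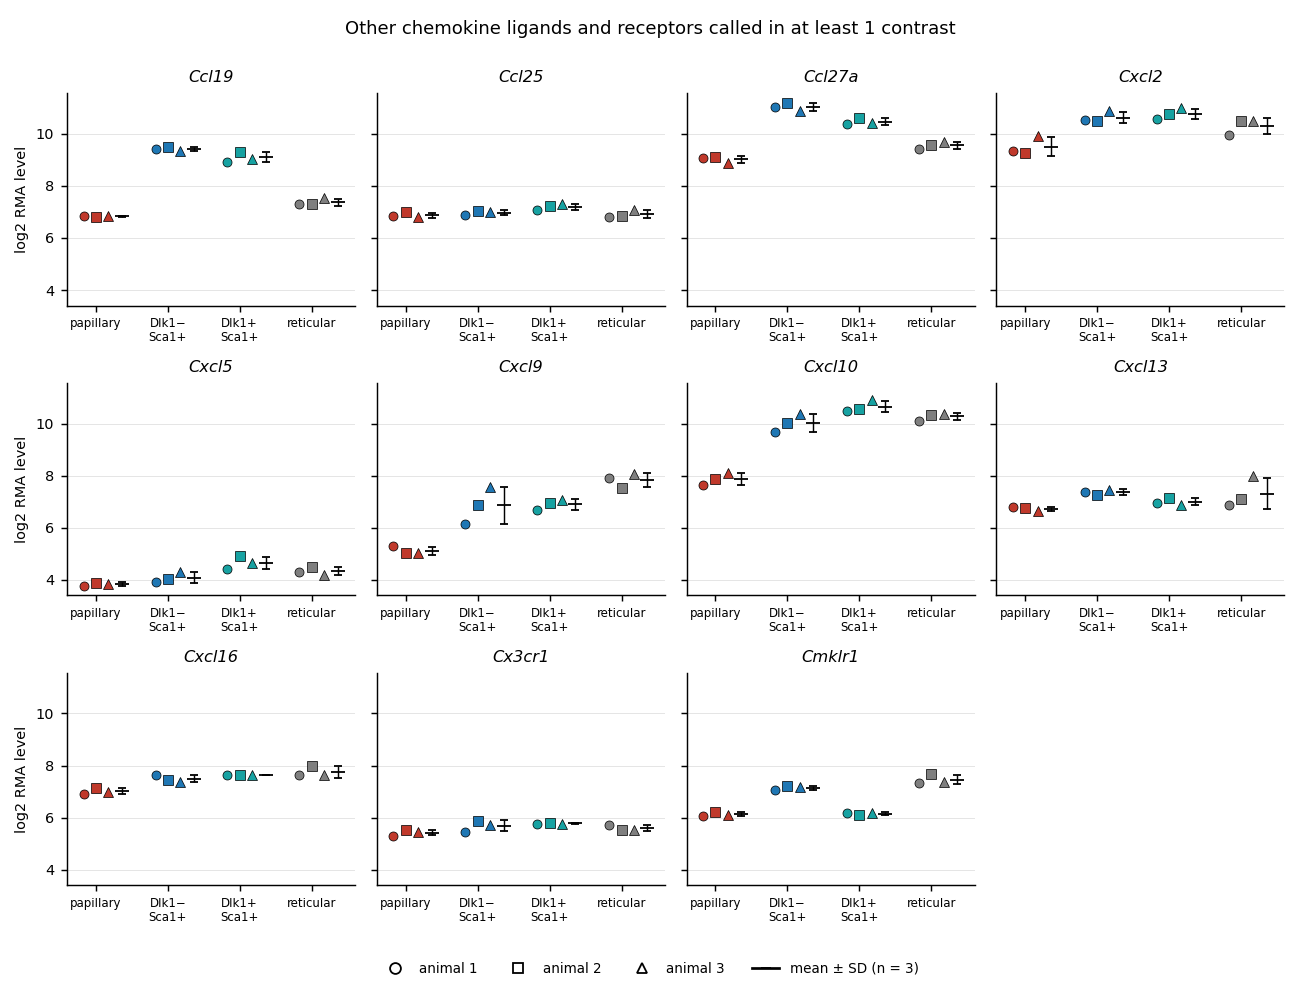
Log2 RMA level of the 11 chemokine ligands and receptors outside the 8 genes that were called in at least 1 contrast, by population and animal, with mean and SD bars. Papillary values of Cxcl10 (7.64 to 8.09) and Ccl19 (6.81 to 6.85) lie below all other arrays, and Cmklr1 is at 6.06 to 6.22 in papillary and 6.10 to 6.19 in Dlk1+ Sca1+ cells.

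Of the 20 receptors measured, 2 were called in any contrast, and none had the papillary pattern of Ackr3 and Ackr4. Each contrast had 1 receptor called. The shares of all genes were 27.5%, 28.0% and 26.4% for papillary minus reticular, Dlk1+ Sca1+ and Dlk1- Sca1+ cells. They were 8.43% in Dlk1+ Sca1+ minus reticular, 18.2% in Dlk1- Sca1+ minus reticular and 7.36% between the Sca1+ populations. With the animal as a block, papillary and Dlk1- Sca1+ cells each had 2 lower than in reticular cells, Cmklr1 and a receptor other than Cx3cr1. Cmklr1, the receptor of chemerin, was at 6.06, 6.22 and 6.11 in papillary cells and 6.19, 6.10 and 6.18 in Dlk1+ Sca1+ cells, which overlapped, and at 7.06, 7.20 and 7.18 in Dlk1- Sca1+ cells and 7.33, 7.67 and 7.38 in reticular cells. It was lower in papillary cells than in Dlk1- Sca1+ cells by -1.02 ± 0.09 (limma adjusted p = 2.29e-06) and than in reticular cells by -1.33 ± 0.09 (adjusted p = 2.46e-07). Cx3cr1, the fractalkine receptor, differed by -0.35 ± 0.10 between papillary and Dlk1+ Sca1+ cells (limma adjusted p = 0.0208), a call lost in 5 of 20 other settings, among them leaving out animal 2 or animal 3 (-0.38 in both). Ackr2, another scavenging receptor, which takes up Ccl2, Ccl7 and Ccl11, was at 4.89 to 5.45 in all 12 arrays and was called nowhere. Ccr2, through which Ccl2 and Ccl7 act, was at 5.21 to 5.63, Ccr3, the receptor of Ccl11, at 4.09 to 4.22, and Cxcr2, the receptor of Cxcl1, at 4.47 to 4.85, none of them called in any contrast.

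Genes that act on chemokines or their receptors were listed in 4 groups. The counts of each group stand beside the same shares of all genes, which were 13.9% higher and 13.6% lower in papillary minus reticular, 14.1% and 13.9% in papillary minus Dlk1+ Sca1+, and 13.1% and 13.3% in papillary minus Dlk1- Sca1+. Receptor coupling genes were called higher in papillary cells for 3 of 8 measured in each papillary contrast, and lower for 0, 1 and 3 against reticular, Dlk1+ Sca1+ and Dlk1- Sca1+ cells, with a median difference of 0.17, 0.07 and 0.12. Grk3, a kinase that phosphorylates activated receptors, was at 8.35 to 8.51 in papillary cells and 7.31 to 7.88 elsewhere, and was higher in papillary than in reticular cells by 0.61 ± 0.10 (limma adjusted p = 0.000277). Gnai1 and Gnai2 encode inhibitory G protein subunits through which conventional chemokine receptors signal. Gnai1 was higher in papillary than in reticular cells by 0.98 ± 0.08 (limma adjusted p = 6.13e-07), and Gnai2 by 0.25 ± 0.06 (adjusted p = 0.00962), the Gnai2 call being lost without any 1 of the 3 animals (0.22 to 0.28) and without the 3 arrays with markers of other cells. Arrb1, an arrestin that binds such receptors, was at 5.87 to 5.96 in papillary cells, 6.22 to 6.46 in Dlk1- Sca1+ cells, 6.02 to 6.21 in Dlk1+ Sca1+ cells and 5.42 to 5.85 in reticular cells, and the papillary minus Dlk1- Sca1+ difference was -0.41 ± 0.11 (adjusted p = 0.0118), or -0.32 without animal 2 (adjusted p = 0.19).

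The group of other ligands of Ackr3 and their receptors had 2 genes called higher and 1 lower of 8 in papillary minus reticular (13.9% and 13.6% of all genes), 1 and 2 in papillary minus Dlk1+ Sca1+, and 2 and 2 in papillary minus Dlk1- Sca1+, with a median difference of -0.05, 0.12 and -0.01. Ramp1, an accessory subunit of the CGRP receptor, was at 9.88 to 10.05 in papillary cells, 6.59 to 7.01 in Dlk1- Sca1+ cells, 5.93 to 6.63 in Dlk1+ Sca1+ cells and 7.32 to 8.11 in reticular cells, and exceeded reticular cells by 2.26 ± 0.20 (limma adjusted p = 2.01e-06). Adm, the vasodilator adrenomedullin, which Ackr3 also takes up, was lower in papillary cells by -1.04 ± 0.09 against Dlk1+ Sca1+ cells (adjusted p = 1.5e-06) and by -0.32 ± 0.09 against reticular cells (adjusted p = 0.0178), where the call was lost in 7 of 21 other settings, among them leaving out any 1 animal (-0.25 to -0.39). Calcrl, the signalling receptor of adrenomedullin, was at 3.96 to 3.98 in papillary cells and 5.80 to 6.73 in Dlk1- Sca1+ cells. It was at 4.56 to 5.46 in Dlk1+ Sca1+ cells and 4.22 to 4.25 in reticular cells. Endothelial genes had a list mean of 5.60 to 5.71 in papillary cells and 5.71 to 6.02 in Dlk1- Sca1+ cells. Their list mean was 5.79 to 6.45 in Dlk1+ Sca1+ cells and 5.95 to 6.16 in reticular cells. The part of endothelial RNA in the Calcrl level was not tested. In papillary minus Dlk1- Sca1+, the call of Adm was lost in 12 of 21 other settings. Ramp2, called higher in that contrast, lost its call in 16 of 21 and was at -0.18 with the mean of all its probe sets. Mif, a cytokine reported to bind Ackr3, was higher in papillary than in reticular cells by 0.42 ± 0.08 (adjusted p = 0.00133), but by 0.03 with the mean of all its probe sets (adjusted p = 0.819) and by 0.36 without animal 2 (adjusted p = 0.0519).

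Of 7 chemokine-processing proteases, 2 were called higher and 1 lower in papillary cells in each contrast, beside 13.1% to 14.1% of all genes higher and 13.3% to 13.9% lower, with a median difference of 0.05, 0.05 and 0.12 from reticular, Dlk1+ Sca1+ and Dlk1- Sca1+ cells. Dpp4, which removes the first residues of Cxcl12 and other chemokines, is the gene of the sorting antigen CD26 and was therefore higher by the sort. Fap, a related protease, ran the other way, at 8.16 to 8.30 in papillary cells, 9.60 to 9.72 in Dlk1- Sca1+ cells, 10.45 to 10.50 in Dlk1+ Sca1+ cells and 10.93 to 11.34 in reticular cells, with a papillary minus reticular difference of -2.86 ± 0.10 (limma adjusted p = 3.72e-10). Mmp14, a membrane-bound metalloprotease, was higher in papillary than in reticular cells by 0.33 ± 0.08 (adjusted p = 0.00578), or 0.30 without animal 1 (adjusted p = 0.0579) and 0.36 without animal 2 (adjusted p = 0.0532).

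Of 10 heparan sulfate genes measured, 3 were called higher and 4 lower in papillary minus reticular (13.9% and 13.6% of all genes), 4 and 3 in papillary minus Dlk1+ Sca1+, and 2 and 3 in papillary minus Dlk1- Sca1+, with a median difference of 0.07, -0.05 and -0.01. Both extracellular sulfatases, which trim sulfate groups from heparan sulfate, were called in opposite directions. Sulf1 was at 6.42, 6.73 and 7.09 in papillary cells, 9.10 to 9.40 in Dlk1- Sca1+ cells, 9.74 to 9.93 in Dlk1+ Sca1+ cells and 10.68 to 10.89 in reticular cells, a papillary minus reticular difference of -4.06 ± 0.14 (limma adjusted p = 4.88e-10). Sulf2 was higher in papillary than in reticular cells by 0.56 ± 0.10 (adjusted p = 0.000602). The sulfotransferases Hs6st1 and Hs6st2, which add such groups, were also opposed, with papillary minus reticular differences of 0.80 ± 0.08 (adjusted p = 9.85e-06) and -0.98 ± 0.10 (adjusted p = 6.39e-06).

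A list of NF-kB and cytokine signalling genes was read next, 23 of 25 measured. It mixes regulators and receptors with genes that NF-kB induces, so its counts are not counts of regulators alone. In papillary cells 19 were called lower and 1 higher against reticular cells, where 13.6% and 13.9% of all genes were. The counts were 20 and 1 against Dlk1+ Sca1+ cells, beside 13.9% and 14.1% of all genes, and 18 and 1 against Dlk1- Sca1+ cells, beside 13.3% and 13.1%. The median difference was -0.73, -0.88 and -0.92 in these contrasts, beside -0.01, 0.00 and -0.00 over all genes. Osmr, the receptor of oncostatin M, was at 4.64, 5.31 and 4.99 in papillary cells, 8.40 to 8.65 in Dlk1- Sca1+ cells, 9.80 to 9.96 in Dlk1+ Sca1+ cells and 9.06 to 9.49 in reticular cells, a papillary minus reticular difference of -4.24 ± 0.15 (limma adjusted p = 6.93e-10). Il6, a cytokine that NF-kB induces, was at 6.76, 6.36 and 7.43 in papillary cells, 8.33 to 9.39 in Dlk1- Sca1+ cells, 9.49 to 9.76 in Dlk1+ Sca1+ cells and 8.70 to 8.88 in reticular cells. In Il6 animal 3 was highest in every population, as it was in papillary cells for Cxcl1 and Cxcl2. The papillary minus reticular difference was -1.95 ± 0.27 for Il6 (adjusted p = 0.000107), -3.86 ± 0.16 for the prostaglandin synthase Ptgs2 (adjusted p = 1.64e-09) and -2.35 ± 0.12 for the transcription factor Cebpd (adjusted p = 1.9e-08). Il1rap, a subunit of the interleukin 1 receptor, was the 1 gene called higher in each papillary contrast, and the inhibitor Nfkbia was called in none. Among the other 3 populations, 5 genes of this list were called in Dlk1+ Sca1+ minus reticular (8 with the animal as a block), beside 8.43% of all genes, 13 in Dlk1- Sca1+ minus reticular, beside 18.2%, and 9 between the Sca1+ populations, beside 7.36%.

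**Figure D5:**
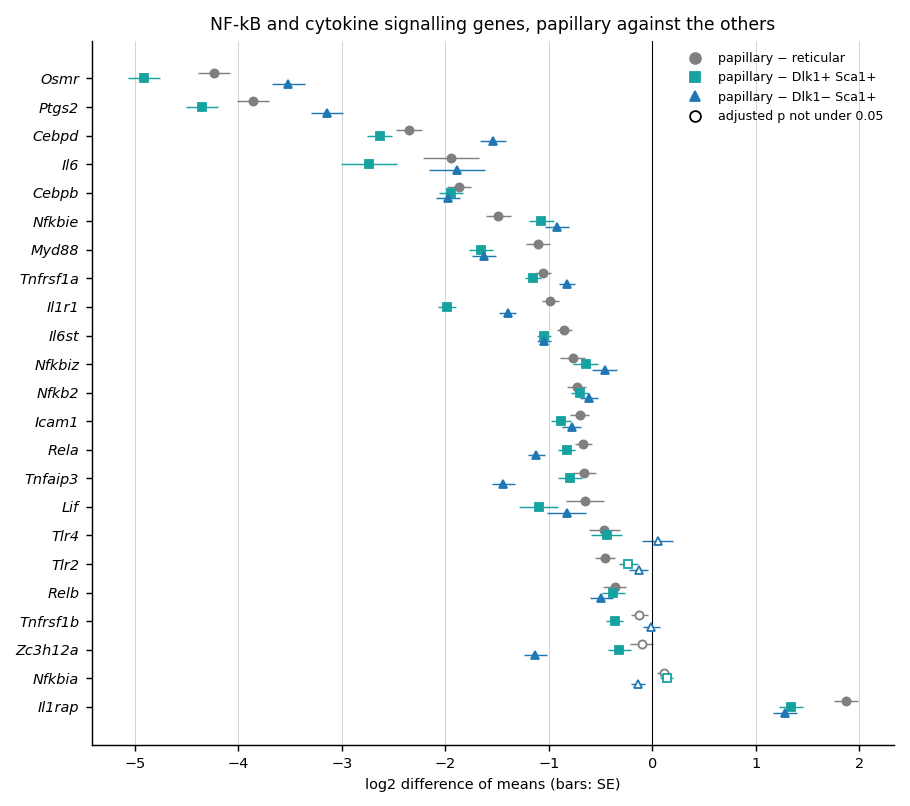
Log2 difference of means (horizontal axis, bars show limma's SE, n = 3 animals per population) of papillary cells from reticular, Dlk1+ Sca1+ and Dlk1- Sca1+ cells for the 23 measured genes of the NF-kB and cytokine list. Filled symbols have an adjusted p under 0.05 and open ones do not, and Osmr has the lowest papillary minus reticular difference (-4.24) while Il1rap lies above 0 in all 3 contrasts.

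Genes that mark Cxcl12-rich stroma, mostly known from bone marrow, were called lower in papillary cells for 5, 6 and 6 of 10 genes against reticular, Dlk1+ Sca1+ and Dlk1- Sca1+ cells, beside 13.6%, 13.9% and 13.3% of all genes, and higher for 1, 0 and 1, with a median difference of -0.65, -0.74 and -0.50. Lepr, the leptin receptor, was at 8.15, 8.28 and 7.89 in papillary cells, 11.70 to 11.79 in Dlk1- Sca1+ cells, 11.14 to 11.20 in Dlk1+ Sca1+ cells and 10.32 to 10.60 in reticular cells. Its papillary difference was -3.64 ± 0.10 from Dlk1- Sca1+ cells (limma adjusted p = 5.29e-11) and -2.35 ± 0.10 from reticular cells (adjusted p = 2.53e-09). Kitl, the stem cell factor, differed by -1.93 ± 0.18 between papillary and reticular cells (adjusted p = 4.34e-06), and the transcription factor Ebf3 by -2.00 ± 0.14 (adjusted p = 1.95e-07). Immediate early genes, which dissociation of tissue can induce, were called lower in papillary cells for 10, 12 and 11 of 19 measured genes in the same order of contrasts, beside the same shares of all genes, and higher for 0, also at an unadjusted p under 0.05, with a median difference of -0.29, -0.42 and -0.35. The transcription factor Klf2 was at 7.23 to 7.40 in papillary cells and at 8.68 to 9.38 elsewhere, with a papillary minus reticular difference of -1.54 ± 0.12 (adjusted p = 5.32e-07), and Nr4a1 differed by -1.18 ± 0.10 (adjusted p = 1.93e-06). Fos, at 12.35 to 12.58, and Egr1, at 12.73 to 12.89, were near the top of the scale in all 12 arrays and were called in no contrast. Among the other 3 populations, immediate early genes were called for 1 of 19 in Dlk1+ Sca1+ minus reticular, beside 8.43% of all genes, 2 in Dlk1- Sca1+ minus reticular (4 with the animal as a block), beside 18.2%, and 1 between the Sca1+ populations, beside 7.36%. Inducible chemokines such as Cxcl1, Cxcl2 and Ccl2 were lower in the same papillary arrays as the immediate early genes, and the part of the response to dissociation in their levels was not tested.

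For each of the 8 genes the 3 genes with the highest Pearson r over the 12 arrays were taken as a description. Because the arrays fall into 4 populations, r mostly follows the 4 population means, and no test is attached. Ackr3 was most like Chrna5 (r = 0.993), Elapor2 (0.992) and Smco3 (0.992). Ackr4 was most like Wls (0.993), Col4a6 (0.993) and Rab11b (0.992). Cxcl12 was most like Adamts12 (0.997), Mgst1 (0.997) and Ms4a4d (0.996), and Ccl7 like Mgst1 (0.997), Hmox1 (0.995) and Hcfc1r1 (0.994). Mgst1 was thus in the first 3 of both genes, with means of 6.30 in papillary cells, 10.45 in Dlk1- Sca1+ cells, 10.48 in Dlk1+ Sca1+ cells and 9.17 in reticular cells. Ccl2 was most like Adamts18 (0.986), Col18a1 (0.982) and Ccl27a (0.982), another chemokine with the same order of populations. Cxcl1 was most like Gsn, Nfib and Birc3, with r from 0.981 to 0.982, Ccl11 like Arih2, Cyth3 and Pygo2, with r from 0.966 to 0.977, and Cxcl14 like Tnik, Kank1 and Tll1, with r from 0.942 to 0.987. When each array was centred on its median, Rab11b left the first 3 of Ackr4, Birc3 those of Cxcl1, Col18a1 those of Ccl2 and Hcfc1r1 those of Ccl7.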

How the data were processed

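The authors deposited 1 table of log2 values for 12 arrays, rounded to 2 decimals. Per the submitters' processing notes they come from RMA in the affy package. Tool versions and a genome build are not given in the sources used here. The method corrects background, equalises the arrays by quantiles and summarises the probes of each probe set, and it understates fold differences of dim probe sets. The values ran from 3.30 to 13.27, with array medians of 6.21 to 6.34, and no further normalization was applied. The table holds no detection calls, so no level was called absent.

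Of 45141 probe sets, 104 controls were left out. The platform annotation paired 28898 with 1 gene symbol, 551 with several and 15588 with none here. Of the first group, 28689 matched a RefSeq gene through the Entrez number and 0 symbols changed. Among probe sets with 1 symbol, the one with the highest mean was taken for each of 17097 genes. Array columns were assigned to population and animal from the labels.

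A linear model with 1 mean per population was fitted over the 12 arrays with limma 3.58.1 in R 4.3.3, leaving 8 residual and 4.475 prior degrees of freedom. Contrasts were tested two-sided with Benjamini-Hochberg adjustment over all genes, and calls were made at an adjusted p under 0.05. The fit was tested on simulated data. Arrays with the same replicate number come from the same littermate by the labels, and their deviations from the population means correlated with a mean r of 0.266 across genes (0.086 to 0.432, 17 of 18 pairs above 0.1).

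The 8 genes and the lists of related genes and cell markers were chosen with earlier results of these data known, so the lists are not independent evidence. Named genes are the 8, every called gene of the family list, up to 4 called genes by size from each other list and contrast, and the 3 most like genes of each of the 8. Genes outside this rule that are named for their role (Ackr2, Ccl8, Ccl12, Ccr2, Ccr3, Cxcr2, Cxcl11, Nfkbia, Fos, Egr1) were chosen after their values were seen. Alternatives were the animal as a block, array centring, repeated quantile normalization, leaving out dim genes, the mean of all probe sets, and leaving out each animal or array. Leaving out the 3 arrays with markers of other cells together was chosen after seeing the data. Another background correction needs scanner files, which were not used here.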

Additional observations from a re-analysis of the deposited data

How the results depend on the processing

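Of 996 recomputed differences of the 8 genes, 989 moved by less than the spread between animals and none that was called changed sign. The 7 others were 5 differences of Cxcl12 with the mean of its 3 probe sets, where they were smaller, and 1 each of Ackr4 and Ccl11 in papillary minus Dlk1+ Sca1+. Leaving out dim genes removed Ackr3 and Ackr4, whose means lie below the median of all genes. The chemokine family count in Dlk1+ Sca1+ minus reticular was 7 with the animal as a block, against 3. In Dlk1- Sca1+ minus reticular it was 2 without dim genes and 2 to 5 when an animal or array was left out, against 4, and the count of 2 came without animal 1 or its Dlk1- Sca1+ array. Between the Sca1+ populations it was 2 without the 3 arrays with markers of other cells and 1 to 4 in the leave-outs, against 4, with 1 without animal 1 or animal 2. Of the 8 genes, 2 to 5 were called in Dlk1+ Sca1+ minus reticular in the leave-outs, against 3, the 5 without the Dlk1- Sca1+ array of animal 1. In Dlk1- Sca1+ minus reticular 3 to 5 were called, against 3, the 5 without animal 1. Between the Sca1+ populations 2 were called with the animal as a block, 2 without the 3 arrays and 0 to 2 in the leave-outs, against 1, the 0 without animal 3. Among genes of the lists, 3761 recomputed values kept their direction and side of the threshold, 280 lost the call, 19 gained one and 1 reversed. That 1 was Ramp2 in papillary minus Dlk1- Sca1+, at 0.17 with 1 probe set (limma adjusted p = 0.0487) and -0.18 with the mean of all (adjusted p = 0.0292). The causes were not tested.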
